A study of Mus musculus with 2 samples.

Results

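The forkhead (Fox) genes were examined as 1 gene family in chromatin accessibility data from wildtype FVB mouse embryonic hearts at E11.5. Members were all autosomal protein-coding genes of the GENCODE M21 annotation whose symbol is Fox, 1 letter from a to s and a number, which gave 41 of 20807 autosomal protein-coding genes; 3 further genes of this name pattern lie on the X chromosome and were left aside. Open chromatin had been profiled by ATAC-seq, in which the Tn5 transposase inserts sequencing adapters into DNA that nucleosomes do not cover, in 2 biological replicates, each a pair of hearts. There was a single genotype, tissue and stage, with no treatment and no control group, so the values below describe this tissue, and no test between groups was possible. The hearts were whole, so each value averages over heart muscle, endocardium, epicardium and blood, and few open cells cannot be told apart from weak opening in many cells.

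Forkhead proteins share a winged-helix DNA-binding domain that recognises variants of a short sequence, given in its strict form as GTAAACA. Some members, above all the FoxA proteins, can bind sites on nucleosomes and open them, and are called pioneer factors. FoxO proteins are moved out of the nucleus when insulin or growth factor signalling activates AKT, while FoxP and FoxK proteins act largely as repressors. In the embryonic heart, Foxc1 and Foxc2 act in the outflow tract and the second heart field, Foxf1 and Foxf2 in splanchnic mesoderm, Foxo1 in endothelium, Foxp1 in myocardium and endocardium, and Foxm1 in dividing cells. Other members are known from tissues outside the heart, such as Foxn1 in the thymus and Foxl2 in the ovary.

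Replicate 1 held 118027 peaks and replicate 2 held 114783, and 98924 regions were covered by peaks of both, called shared regions here. The measure of height is the fold enrichment at a peak's summit, which is the pileup of reads over 1 genome-wide background value, and where several peaks met in a shared region the highest of each replicate was taken. All listed fold enrichments were, within 0.02 of a step, whole multiples of 0.272 in replicate 1 and of 0.251 in replicate 2, so low values moved in coarse steps and equal values were common. The lowest fold enrichment listed was 2.72 in replicate 1 and 2.51 in replicate 2, and a gene without a peak may still lie at any value below these. A shared promoter region was found at 10 of 10 heart muscle genes, 6 of 6 endothelial and endocardial genes, 4 of 4 epicardial genes and 5 of 5 red blood cell genes. The same held for 4 of 4 neural genes, 2 of 4 skeletal muscle genes and 1 of 4 liver genes, so an open promoter alone did not separate heart genes from neural genes. Over all autosomal protein-coding genes the share was 68.8%.

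Of the 41 forkhead genes, 31 had a shared region within 1 kb of an annotated start, beside 68.8% of all autosomal protein-coding genes. Forkhead promoters ranged from the tallest 25% of all promoters, at Foxn2, Foxj2, Foxo3, Foxa3 and Foxk2, to the least open few percent, at Foxd4 and Foxi2. Replicate 1 had a promoter peak at these 31 genes and replicate 2 at 34, the additional ones being Foxe1, Foxd3 and Foxl1. Where a gene had several promoter regions, the one with the highest mean fold enrichment stands for it. The median over the 31 genes was 19.3 in replicate 1 and 15.8 in replicate 2, against 24.4 and 24.6 for the 14309 genes with a promoter region. In each replicate 13 of the 31 lay in the lowest 25% of all promoters, and 5 in replicate 1 and 7 in replicate 2 lay in the highest 25%. The replicates ranked the members alike, with a Spearman rho of 0.978 over 31 genes, a description over genes that share the same libraries. The higher replicate exceeded the lower by a median ratio of 1.14 and by at most 1.47, at Foxf1. Of the 30 pairs of neighbours in the order by mean fold enrichment, only 6 had replicate values that did not overlap, among them Foxn2 above Foxj2, Foxp4 above Foxj3, Foxd2 above Foxc1, Foxl2 above Foxs1, and Foxd4 above Foxi2.

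**Figure D1:**
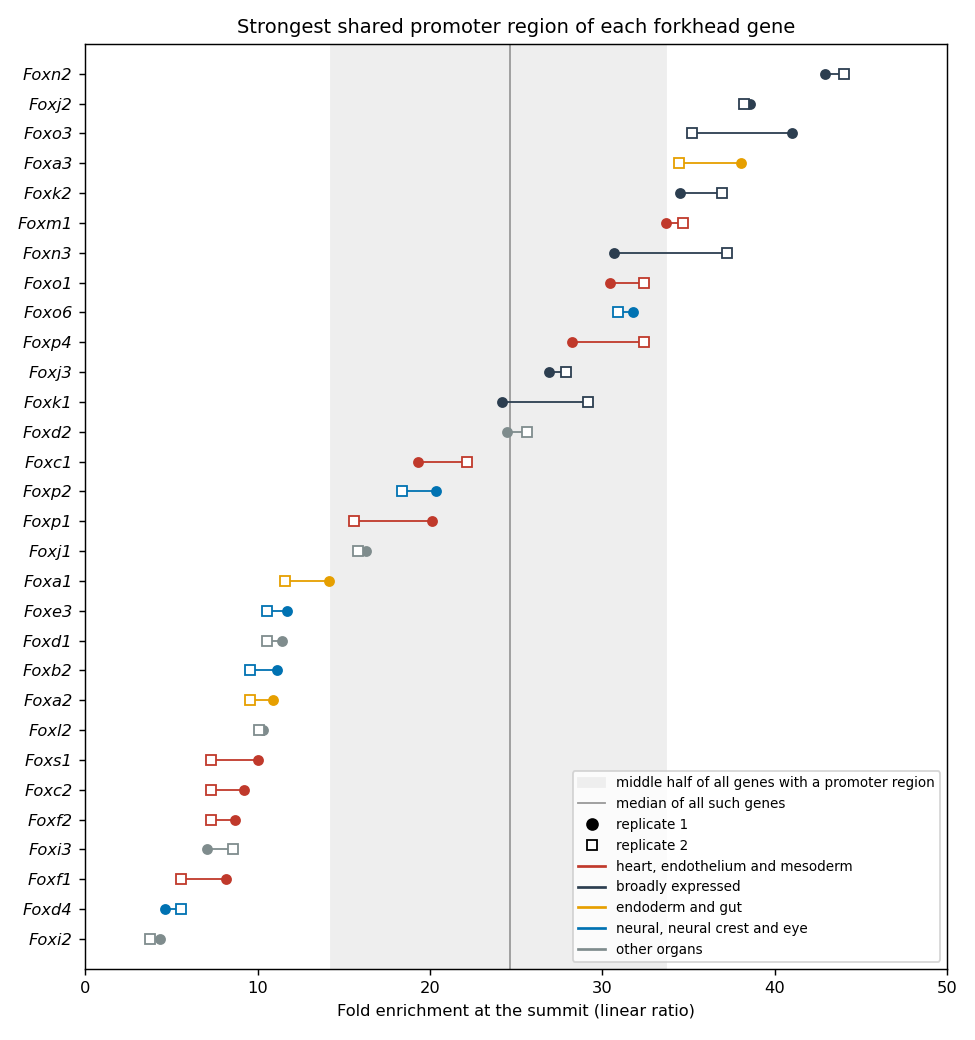
Fold enrichment (horizontal axis, linear ratio) at the strongest shared promoter region of 30 of the forkhead genes that had one, with replicate 1 as filled circles, replicate 2 as open squares and colours for the expression lists. The grey band spans the lower to the upper quartile of all genes with a promoter region and the grey line marks their median of 24.6; the means of the 7 broadly expressed genes lie to the right of that line, and those of most other members to its left.

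The broadly expressed members held the tallest promoters as a group. All 7 of Foxj2, Foxj3, Foxk1, Foxk2, Foxn2, Foxn3 and Foxo3 had a promoter region, beside 68.8% of all genes. Their median mean fold enrichment was 35.7, beside 24.6 for all genes with a promoter region. Foxn2, a little-studied relative of the checkpoint suppressor Foxn3, had the highest value of the family, 42.9 in replicate 1 and 44.0 in replicate 2. At Foxj2, a broadly expressed activator, the values were 38.6 and 38.2, and they came from an internal start 6559 bp inside the gene, while the region at its outermost start had 26.1 and 24.9. Foxo3, a FoxO factor of stress resistance and cell survival, had 41.0 and 35.2 in a region of 5329 bp, and 46.4% of its coding sequence lay in shared regions of any kind. Foxk2, which represses genes of autophagy with its paralogue Foxk1, had 34.5 and 37.0. Foxk1 itself had 24.2 and 29.2, so the paralogues did not overlap in either replicate. Foxn3 had 30.7 and 37.2 at a start 170470 bp inside the gene and 16.0 and 15.6 at its outermost start. Foxj3 had 26.9 and 27.9 at an internal start that it shares with the annotated coding gene Frg2f1, and had no region at its outermost start.

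Among the 10 heart, endothelium and mesoderm members, 9 had a promoter region, beside 68.8% of all genes. Their heights fell into a tall and a low set with Foxc1 and Foxp1 between them. Foxm1 (chr6:128362967-128376146, plus strand of mm10), which drives entry into mitosis, had 33.7 and 34.7, in a region that is also the promoter of the divergent gene Rhno1. Foxo1 (chr3:52268336-52353221, plus strand), required for embryonic blood vessels, had 30.4 and 32.4 over 3216 bp. Foxp4 (chr17:47867133-47924645, minus strand), a FoxP repressor, had 28.2 and 32.4. The replicate values of Foxo1 and Foxp4 overlapped, and all 3 lay above the median of all promoters. Foxc1 (chr13:31806633-31812476, plus strand), a regulator of mesenchyme, outflow tract and eye, had 19.3 and 22.1 over 2751 bp. Its paralogue Foxc2 (chr8:121116171-121118895, plus strand) had 9.24 and 7.29 over 783 bp, less than Foxc1 in both replicates. Foxp1 (chr6:98925338-99522721, minus strand), which acts in myocardium and endocardium, had 20.1 and 15.6 at a start 494314 bp inside the gene and 16.0 and 14.8 at its outermost start. Foxs1 (chr2:152931898-152933208, minus strand), known from pericytes and vascular smooth muscle, had 10.1 and 7.29 in a region of only 422 bp. Of the splanchnic mesoderm genes, Foxf2 (chr13:31625816-31631403, plus strand) had 8.69 and 7.29. Foxf1 (chr8:121084386-121088144, plus strand) had 8.15 and 5.53. Foxs1, Foxc2 and Foxf2 had the same value in replicate 2 and cannot be ordered there. Foxh1 (chr15:76668225-76669948, minus strand), the partner through which SMAD proteins answer Nodal, had no peak within 1 kb in either replicate.

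Sequence around the replicate 1 summit is shown for 4 of these promoters because they span the range of the family, from the tallest of all, through the tallest of the heart list, to a middle and a low one. Each line gives the summit and the 100 bases on each side of it on the forward strand of GRCm38 (mm10) from the RefSeq copy of that assembly, with the letters of any of the 8 motifs searched in capitals. The windows are chr17:88440395-88440595 for Foxn2, chr6:128362736-128362936 for Foxm1, chr13:31806332-31806532 for Foxc1 and chr8:121083794-121083994 for Foxf1. Capitals mark CCGGAAG, the core bound by ETS factors, and GGGCGG, the GC box bound by SP and KLF factors, each on either strand.
Foxn2: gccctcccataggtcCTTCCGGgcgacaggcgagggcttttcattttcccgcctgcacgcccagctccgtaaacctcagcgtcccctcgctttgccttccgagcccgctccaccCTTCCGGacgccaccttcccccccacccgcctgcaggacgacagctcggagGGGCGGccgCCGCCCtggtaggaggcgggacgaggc
Foxm1: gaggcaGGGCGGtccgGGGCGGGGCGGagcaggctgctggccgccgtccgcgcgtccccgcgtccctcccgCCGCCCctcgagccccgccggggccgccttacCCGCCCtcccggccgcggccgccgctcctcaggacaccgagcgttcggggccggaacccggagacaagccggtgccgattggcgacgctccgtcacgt
Foxc1: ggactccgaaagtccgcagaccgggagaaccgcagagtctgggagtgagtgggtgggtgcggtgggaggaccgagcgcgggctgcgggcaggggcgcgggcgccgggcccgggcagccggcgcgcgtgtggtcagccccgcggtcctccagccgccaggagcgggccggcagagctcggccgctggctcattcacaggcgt
Foxf1: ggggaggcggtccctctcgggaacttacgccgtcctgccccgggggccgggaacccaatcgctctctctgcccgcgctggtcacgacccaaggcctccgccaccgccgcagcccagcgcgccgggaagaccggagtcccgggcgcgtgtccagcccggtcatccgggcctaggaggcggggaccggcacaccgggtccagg
The Foxn2 window had 4 matches and the Foxm1 window 5, all of the latter GC boxes, while the Foxc1 and Foxf1 windows had no match to any of the 8 motifs.

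The endoderm list was uneven, with a promoter region at 3 of 6 genes, beside 68.8% of all genes. Foxa3, a liver and gut pioneer factor, had 38.0 and 34.4, the fourth highest mean of the family, but its region also lies at the promoter of the neighbouring housekeeping gene Sympk, with the summit 773 bp upstream of the Foxa3 start. Its share of that signal cannot be told apart from that of Sympk. Foxa1 had 14.1 and 11.6, at 1053 bp inside the gene. The region at its outermost start had 3.26 and 11.6, the latter from the same replicate 2 peak, and both summits lie outside that region. Foxa2 had 10.9 and 9.55. Foxl1 of the gut mesenchyme, Foxe1 of the thyroid and Foxq1 had no shared promoter region.

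Of the 9 members of the neural, neural crest and eye list, 6 had a promoter region, or 66.7%, beside 68.8% of all genes. Foxo6, a brain FoxO factor, had 31.8 and 30.9, and Foxp2, known for its role in brain circuits of vocalisation, had 20.4 and 18.4. Lower values stood at the lens gene Foxe3, with 11.7 and 10.6, at Foxb2, with 11.1 and 9.55, and at Foxd4, with 4.62 and 5.53. Foxb1, Foxd3 and Foxn4 had no shared promoter region. In the remaining list, of other organs, 6 of 9 had one: Foxd2 with 24.4 and 25.6, the motile cilia gene Foxj1 with 16.3 and 15.8, the kidney stroma gene Foxd1 with 11.4 and 10.6, the ovary gene Foxl2 with 10.3 and 10.1, Foxi3 of ectodermal placodes with 7.06 and 8.55, and Foxi2 with 4.35 and 3.77. Foxi2 was the lowest of the family, in a region of 313 bp from which the replicate 2 summit fell outside. Foxi1, Foxn1 and Foxr1 had no region. The share of other organs with a region was also 66.7%, near that of all genes. The median mean fold enrichment was 17.8 for the heart list, 12.8 for the endoderm list, 13.2 for the neural list and 10.6 for other organs. All of these lay below the 24.6 of all genes with a promoter region.

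The 10 members without a shared promoter region differed in how close the nearest open region lay. At Foxd3, a gene of premigratory neural crest, replicate 2 alone had peaks within 1 kb of the start. There were 2, of which the one of 4.53 met no replicate 1 peak. A shared region of 6.52 and 6.03 began 1003 bp downstream of the start, just outside the limit, on the coding exon. Foxl1 had a start peak of 3.52 in replicate 2 alone and a shared region of 12.2 and 11.8 at 2048 bp upstream. Foxe1 had a start peak of 3.77 in replicate 2 alone and no shared region nearer than 17668 bp. Foxq1 had no start peak, but a region of 12.0 and 11.3 began 1775 bp downstream and covered its whole coding sequence, and the annotated gene A530084C06Rik starts within 1 kb of it. Near Foxh1 the closest region lay 1057 bp upstream, at the promoter of Ppp1r16a, with 26.6 and 23.9. The other distances to the nearest shared region were 13061 bp for Foxr1, 13202 bp for Foxi1, 25819 bp for Foxn1 and 41241 bp for Foxn4. Foxb1, a gene of the developing hypothalamus, stood apart: its nearest shared region lay 228171 bp away, and its whole window of gene body plus 50 kb on each side was empty.

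The position of the summits agreed closely between the replicates. In 24 of the 31 promoter regions the summits lay within 100 bp of each other, with a median gap of 31 bp and the largest, 387 bp, at Foxf2. Relative to the outermost start, 14 summits lay upstream and 17 downstream, and 17 lay within 500 bp of it. That start itself lay inside a shared region in 25 of the 41 genes. Several promoter regions were found in 13 of the 31 members, beside 33.2% of all genes with a promoter region. Foxn3 had the most, 9 over its 14 annotated starts, then Foxp2 with 5 over its 16 starts. Foxp1, Foxp4 and Foxa1 followed with 4 each. A peak that meets several peaks of the other replicate is split, so such counts can exceed the number of separate peaks. The 9 regions of Foxn3 drew on only 7 replicate 1 peaks, and the 5 of Foxp2 on 4 replicate 2 peaks. Foxa1, with 2 annotated starts, had its 4 regions from 3 replicate 1 peaks and only 2 of replicate 2. The strongest region was shared with the start of another coding gene at 4 members, among them Foxa3, Foxm1 and Foxj3. At 6 members it lay within 1 kb of the start of a noncoding gene, among them Foxd2 with its antisense neighbour Foxd2os, Foxl2 with Foxl2os, and Foxf1 with Fendrr. Accessibility has no strand, so the share of each gene in such a region cannot be told apart. Shares over all genes were not worked out for starts inside a region or regions shared with another gene. Those counts describe the members only.

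CpG-rich members had a promoter region more often than the others, and among members with one the CpG ratio followed height only weakly. The ratio of observed to expected CpG in the 2 kb around a start, taken at the start where it was highest, was at least 0.6 for 33 members, and 29 of these had a promoter region, against 96.1% of all genes that rich in CpG. The 4 that lacked it were Foxb1, Foxd3, Foxe1 and Foxl1, of which the last 3 are the genes with a replicate 2 peak alone. Among the 8 members of lower ratio, only Foxs1 and Foxi2 had a region, against 50.8% of such genes. The CpG-rich members with a region had a median mean fold enrichment of 19.4, against 29.1 over all CpG-rich genes with one. Over the 31 members, fold enrichment had a rho of 0.22 with the CpG ratio. Only Foxs1 and Foxi2 of the 31 had a ratio under 0.6, so that rho says little about low ratios. With the length of the region the rho was 0.71, but length and height are 2 measures of the same peaks. Copies of 32 bases from the promoter windows occurred once in the genome for between 92.9% and all of a gene's positions, with a median of 98.4%, so multiple mapping touched few positions even at Foxh1, which had the lowest share.

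Forkhead promoter regions were long for their height, and often lay over the coding sequence itself. Their median length was 1793 bp against 1354 bp for all genes, and 12 of 31 were at least 2 kb long, beside 18.8% of all genes with a promoter region. Among CpG-rich genes alone the medians were 1941 bp for members and 1606.5 bp for all. The longest were those of Foxo3 (5329 bp), Foxo1 (3216 bp) and Foxj2 (3013 bp), but Foxl2 had 2749 bp and Foxd1 2131 bp although both lay in the lowest 25% by height. Many forkhead genes have their whole coding sequence in 1 exon close to the start. Of 15 such members 10 had a promoter region, beside 29.4% of all genes with 1 coding exon, and their median mean fold enrichment was 10.7, against 27.4 for the 21 members with several coding exons and a region. Over all genes the corresponding medians, 19.7 and 24.9, lay closer together. Of the 15 members, 13 were CpG-rich, against 550 of 3131 genes of 1 coding exon, so the 29.4% is not a like comparison. Over all CpG-rich genes the share with a promoter region was 96.1%. CpG-rich genes of 1 coding exon that had a region reached a median of 25.0.

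At least 50% of the coding bases lay in shared regions in 15 of 41 members, beside 5.61% of all genes. Among members of 1 coding exon this held for 10 of 15, beside 12.7% of all genes of that form, and among those that were also CpG-rich for 9 of 13, beside 51.3%. All coding bases were covered in Foxd2, Foxd1, Foxb2, Foxl2 and Foxq1, and 93.9% in Foxc1. Its paralogue Foxc2, also of 1 coding exon, had only 19.2% covered, and Foxs1 5.27%. The members of several coding exons past this limit were Foxa1 (85.3%), Foxa2 (81.3%), Foxf2 (81.1%), Foxo6 (77.3%) and Foxi3 (52.5%). In contrast Foxf1, the partner of Foxf2 in splanchnic mesoderm, had 17.9%.

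**Figure D2:**
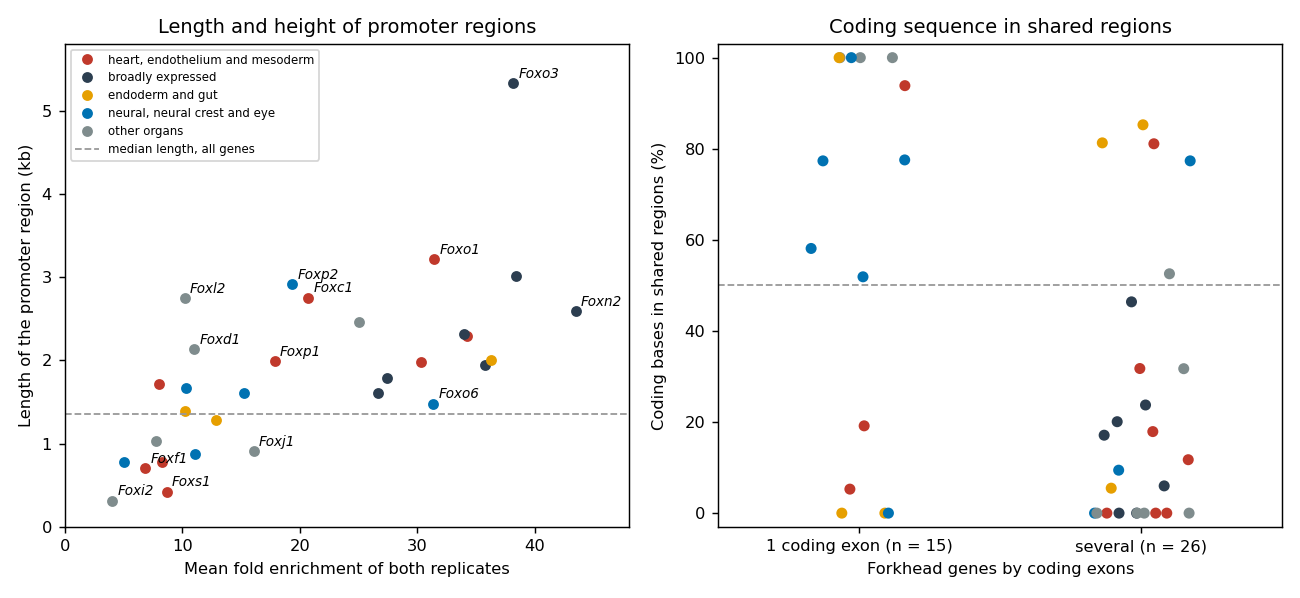
Left, length of the promoter region (kb) against mean fold enrichment of both replicates for the 31 forkhead genes with a promoter region, coloured by list, with the median length of all genes dashed; Foxl2 and Foxd1 are longer than the other members of like height and Foxo3 is the longest. Right, percent of coding bases within shared regions for all 41 members by number of coding exons, points spread sideways to be visible, with the 50% limit dashed; 10 of 15 genes of 1 coding exon and 5 of 26 others lie above it.

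The windows of gene body plus 50 kb on each side held 453 shared regions, of which 20 fell in the windows of several members. Of the 453, 61 lay within 1 kb of a member's start, 57 within 1 kb of the start of another coding gene, and 335 farther than that from every coding start, called distal here. At least 1 distal region was present for 39 of 41 members, beside 84.8% of all genes, and Foxb1 and Foxn4 had none. Of the 335, 187 lay in introns, 132 of them in introns of a forkhead gene, 99 between genes, 24 on coding exons and 25 on noncoding exons. The median density over the members was 7.75 regions per 100 kb, against 5.62 over all genes, and 14 members lay above the upper quartile of all genes, 9.17, and 2 below the lower quartile, 2.69.

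**Figure D3:**
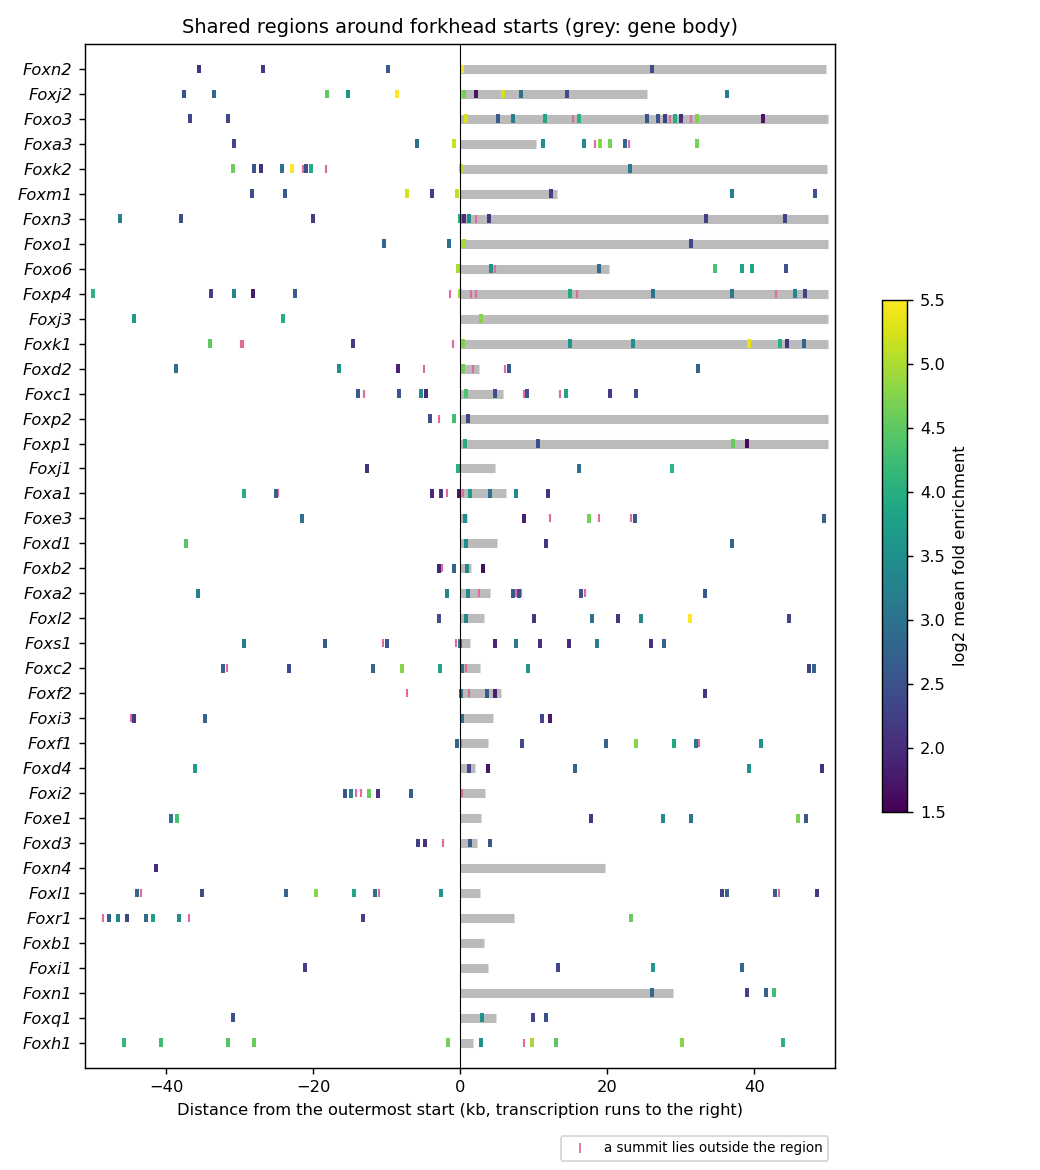
Shared regions by distance from the outermost start of each forkhead gene (kb, drawn so that transcription runs to the right), 1 row for each of 40 genes in the order of promoter fold enrichment, cut at 50 kb from the start, with the gene body in grey. Tick colour gives the log2 of the mean fold enrichment, pink marks regions from which a replicate's summit falls outside, and the row of Foxb1 is empty.

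The 6 densest windows were those of Foxp4 with 17.1 regions per 100 kb, Foxl1 with 13.6, Foxa1 with 13.2, Foxs1 with 12.8, Foxo3 with 12.3 and Foxc1 with 12.3. This order counts every shared region, also those from which a replicate's summit falls outside. Both summits lay inside 13 of 20 distal regions at Foxp4, 8 of 9 at Foxl1 and 6 of 9 at Foxa1. At Foxs1 this held for 8 of 8, at Foxo3 for 17 of 23 and at Foxc1 for 9 of 12. A distal region at Foxa1 was only 9 bp long. Foxp4 had 27 regions, 20 of them distal and 5 in its own introns. The 14 regions around Foxl1 are those of its cluster with Foxf1 and Foxc2 and include the promoters of both. The 6 sparsest were Foxb1 with 0, Foxn4 with 0.836, Foxp2 with 2.97, Foxo1 with 3.79, Foxd1 with 3.81 and Foxq1 with 3.82, and Foxj1 came next with 3.82. For Foxo1, a tall promoter stood beside 6 distal regions of 4.89 to 8.15 in replicate 1 and 3.77 to 7.79 in replicate 2. Foxp2 had 19 regions in a window that its long gene body makes the second longest of the family. By count the long genes led: Foxp1 had 52 regions, of which all 48 distal ones lay in its own introns, and Foxn3 had 48, of which 39 were distal and 32 in its own introns. Foxp4 with 27 and Foxo3 with 24, 19 of them in its own introns, came next. In the gene-dense window of Foxh1, 9 of 11 regions lay at starts of other coding genes, and 2 were distal.

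**Figure D4:**
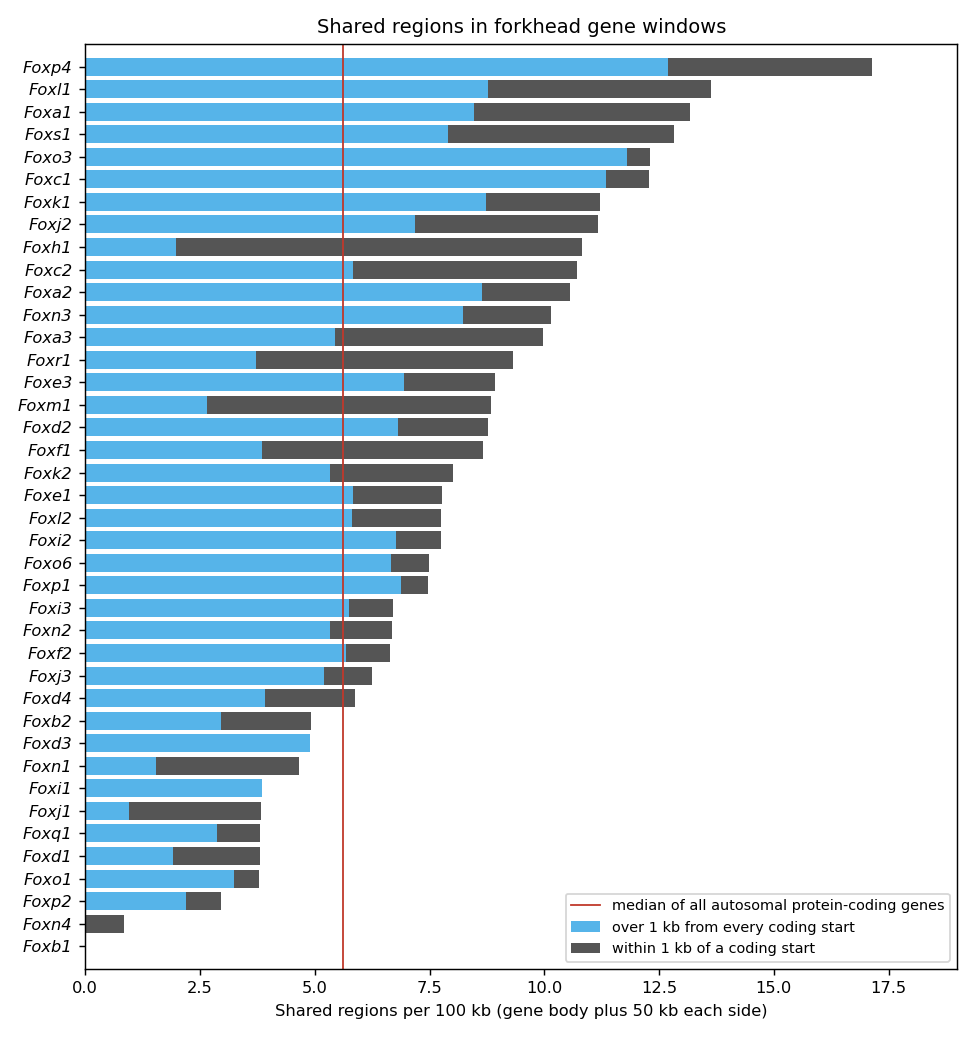
Shared regions per 100 kb (horizontal axis) in the windows of 40 forkhead genes, split into regions within 1 kb of a coding start (dark) and farther regions (blue), with the median of all autosomal protein-coding genes, 5.62, in red. Foxp4 has the highest value, Foxh1 owes most of its regions to other genes' starts, and Foxb1 has none.

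In 83.4% of the 453 regions both replicates had their summit inside the region. In the others, at least 1 replicate's height was measured at a summit outside the region, so heights of distal regions are given for the 279 that held both summits. Their median was 6.52 in replicate 1 and 5.78 in replicate 2, against 6.25 and 5.53 over all 67193 such distal regions on the autosomes. By replicate, 14 and 17 of the 279 lay in the highest 5% of all distal regions, close to that share. Distal regions near forkhead genes were of ordinary height, with a few tall exceptions.

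Members differed in the height of their distal regions as well as in their number. Foxo6, with 7 distal regions holding both summits, had medians of 13.3 in replicate 1 and 10.3 in replicate 2 and reached 23.1 and 17.1, between genes 34683 bp from its start. At Foxp4 the medians over 13 regions were 7.88 and 8.04, and the highest values 19.3 and 16.8. By contrast, the many intronic regions of the long genes were mostly low: over 45 regions Foxp1 had medians of 5.98 and 4.78, and over 32 regions Foxn3 had 6.52 and 5.40, with no value above 12.5 in either replicate. Among the remaining heart members, Foxh1 had the highest medians, 14.1 and 14.5, over 2 regions. The medians were 6.38 and 5.03 at Foxm1, over 2 regions, and 7.20 and 5.53 at Foxo1, over 6. They were 6.25 and 5.03 at Foxc1, 7.47 and 6.03 at Foxc2, 10.1 and 8.80 at Foxf1, 5.84 and 4.65 at Foxf2, and 5.70 and 4.40 at Foxs1. The windows of Foxf1 and Foxc2 overlap and share regions, so these are not separate observations. Foxb2 had the lowest distal regions, 2 of them, with medians of 3.80 and 3.02.

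The 8 tallest distal regions lay near 6 genes. The first lay 8888 bp upstream of Foxj2, at chr6:122810149-122812511, with 51.1 and 49.8, taller than any forkhead promoter, and it lies within 1 kb of the start of the noncoding gene Gm5112. The second was in a Foxk1 intron, 39142 bp inside the gene, at chr5:142439830-142441810, with 40.7 and 41.0, above the promoter of Foxk1 itself in both replicates. A Foxo3 intron held the third, at chr10:42243949-42245127, with 26.1 and 27.4. The fourth lay 12269 bp upstream of Foxi2, at chr7:135397379-135398482, with 22.0 and 25.9, over a noncoding exon of 4930544L04Rik, although the Foxi2 promoter was the lowest of the family. Foxp1 introns held 2 of the 8, at chr6:99485035-99486085 with 25.3 and 22.1, and at chr6:99200407-99201551 with 21.7 and 20.4, both above its promoter in each replicate. The last were a region 34005 bp upstream of Foxk1, at chr5:142366903-142368129, with 20.6 and 24.6, and one 38614 bp upstream of Foxe1, at chr4:46304669-46305567, with 18.2 and 22.1. Foxe1 thus had a tall region in its window but no shared region at its start.

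Summits of 3 of these intronic regions, with 100 bases on each side, are shown because they hold a forkhead or a MEF2 motif, MEF2 being a family of muscle transcription factors. They are chr5:142440539-142440739 for the Foxk1 intron, chr6:99485219-99485419 for the first Foxp1 intron and chr6:99200600-99200800 for the second, forward strand of GRCm38 from RefSeq. Capitals mark GTAAACA and GGGCGG in the Foxk1 line, each on the reverse strand, and TAAAAATA in the Foxp1 lines, on the forward strand in the first and the reverse strand in the second.
Foxk1 intron: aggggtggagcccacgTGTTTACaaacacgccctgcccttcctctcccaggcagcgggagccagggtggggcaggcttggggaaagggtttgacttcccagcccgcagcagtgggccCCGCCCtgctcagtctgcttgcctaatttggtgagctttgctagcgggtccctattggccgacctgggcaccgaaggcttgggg
Foxp1 intron, first: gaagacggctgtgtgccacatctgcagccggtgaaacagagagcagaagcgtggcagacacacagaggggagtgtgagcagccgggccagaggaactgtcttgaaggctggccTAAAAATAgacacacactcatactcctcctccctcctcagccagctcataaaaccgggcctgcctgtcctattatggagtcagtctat
Foxp1 intron, second: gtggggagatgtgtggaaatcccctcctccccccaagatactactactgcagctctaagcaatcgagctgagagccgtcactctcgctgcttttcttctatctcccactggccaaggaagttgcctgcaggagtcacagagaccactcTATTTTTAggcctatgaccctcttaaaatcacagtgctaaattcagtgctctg

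Most forkhead genes stand alone, but 2 clusters hold heart and mesoderm members side by side. On chromosome 8, Foxf1, Foxc2 and Foxl1 have their starts within 43.6 kb, and the combined window of 146 kb held 14 regions. Of these, 5 lay at coding starts and 9 were distal, and the 8 distal regions holding both summits spanned 4.62 to 14.9 in the first replicate and 4.27 to 14.3 in the second. The tallest distal region lay 2693 bp upstream of Foxc2, at chr8:121113200-121113751, with 14.9 and 14.3, above the promoters of both Foxf1 and Foxc2 in each replicate. The next, at chr8:121124875-121125892, with 12.2 and 11.8, lay just upstream of Foxl1. Tallest of all in this window was the promoter of Mthfsd, a gene between Foxf1 and Foxc2, with 23.6 and 30.9. The Foxf1 promoter region also lies within 1 kb of the start of Fendrr, a noncoding RNA gene transcribed away from Foxf1.

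On chromosome 13, Foxq1, Foxf2 and Foxc1 have their starts within 250.5 kb, and the combined window of 356 kb held 26 regions, of which 23 were distal. The 18 distal regions holding both summits spanned 3.80 to 15.5 in the first replicate and 3.27 to 13.1 in the second. The tallest lay 14479 bp downstream of the Foxc1 start, at chr13:31820577-31821472, with 15.5 and 13.1, in an intron of Gmds. Near Foxf2, the tallest distal region was at chr13:31681169-31681564, with 7.33 and 9.05, and a region in the Foxf2 intron had 6.79 and 5.53. Foxc1 was the only promoter of this cluster with values above its distal regions in both replicates. Per 100 kb, the 2 clusters had 9.57 and 7.30 regions. Another pair, Foxd2 and Foxe3 on chromosome 4, had 9 regions in 119.7 kb, and its 4 distal regions holding both summits reached 7.61 in replicate 1 and 7.29 in replicate 2.

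The 8 motifs were searched on both strands within 100 bases of the replicate 1 summit, in regions that held that summit. None of the 8 strings contains another. The forkhead motif GTAAACA was found in 1 of 55 forkhead promoter regions (1.82%), beside 1.57% of all 18866 promoter regions. In distal regions near forkhead genes it was found in 6 of 302 (1.99%), beside 2.82% of all 70801. The 6 lay near Foxo3, Foxa1, Foxn3, Foxn2, Foxk1 and Foxi2. Motifs of cardiac factors were about as frequent or less frequent in distal regions near forkhead genes than in all distal regions. AGATAA, bound by GATA factors, was in 14.9% of the distal regions against 20.3% of all, GGAATG, bound by TEAD factors, in 12.9% against 16.5%, and TNAAGTG, bound by NKX2-5, in 13.2% against 13.1%. For MEF2, TAAAAATA was in 2.65% against 3.32%, and for T-box factors AGGTGTGA was in 1 of 302 regions, 0.331% against 0.929%. In promoter regions these 5 motifs were in 3.64%, 7.27%, 3.64%, 3.64% and 0% of the 55, in the order given, against 6.48%, 8.69%, 6.13%, 0.954% and 0.456% of all. The ETS motif CCGGAAG was in 3.64% of forkhead promoter regions against 8.72% of all promoter regions, and in 1.32% of distal regions against 1.46%. GGGCGG, the SP and KLF motif, was in 45.5% of forkhead promoter regions against 46.4% of all, and in 14.9% of distal regions against 7.29%. A match is a string of letters, and binding was not measured.

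**Figure D5:**
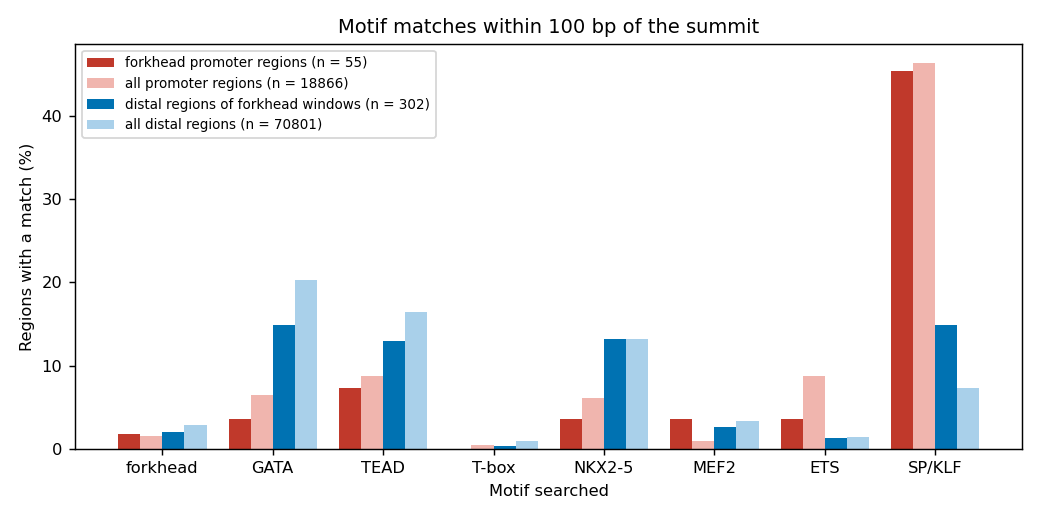
Percent of regions (vertical axis) with a match to each of the 8 motifs within 100 bp of the replicate 1 summit, for forkhead promoter regions and distal regions of forkhead windows (dark bars) beside all promoter and all distal regions on the autosomes (pale bars). The GC box share in distal regions near forkhead genes, 14.9%, stands above that of all distal regions, 7.29%, the NKX2-5 shares are nearly equal, and the GATA and TEAD shares lie below.

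Genes of proteins that forkhead factors work with were also looked at, in a list chosen with earlier results of these data known. The 20 partner and regulator genes, among them the kinase gene Akt1 of FoxO control, the SMAD genes Smad2 and Smad4, the co-repressor genes Tle1, Tle3 and Tle4 and the acetyltransferase genes Crebbp and Ep300, had a promoter region at 20 of 20, beside 68.8% of all genes and 96.1% of CpG-rich genes. Their median mean fold enrichment was 33.5, beside 24.6 for all genes with a promoter region, and their values ran from 19.6 at Akt1 to 58.2 at Tle4. Akt1 had 19.6 in both replicates, and Tle4 had 58.7 and 57.8, above every forkhead promoter. The partners' median lay close to that of the broadly expressed forkhead genes and above that of each of the other 4 forkhead lists.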

How the data were processed

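ATAC-seq was from 2 replicates of E11.5 wildtype hearts. The authors trimmed reads with Trim Galore (version 0.6.6) and Cutadapt, aligned them to GRCm38/mm10 with Bowtie2 (2.4.2), removed duplicates and reads of mapping quality under 10 with SAMtools (1.12), and called peaks per replicate with MACS2 without a local background. Local copy number or mappability is therefore not divided out of the heights. The deposited peak lists give a score, a fold enrichment (a ratio of summit pileup to the genome-wide background with 1 added to each), and −log10 p-values and q-values. Read depth is not listed in them.

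A shared region was the overlap, of at least 1 bp, of peaks of both replicates. Regions were assigned to GENCODE M21 genes within 1 kb of any transcript start, and within the gene body plus 50 kb on each side. Composition, 32-base uniqueness and motifs came from the GRCm38 RefSeq assembly. Python (3.11.15), NumPy (2.4.6), pandas (2.3.3) and SciPy (1.17.1) were used, and overlap and motif steps were tested on simulated data. Values are named for the 10 highest and 5 lowest promoters, members with no shared promoter region, the 6 densest and 6 sparsest windows, the 8 tallest distal regions, the heart list and both clusters, and other members are named once; 1 member and 1 partner gene counted in the totals are not reported by name here. Members, role lists, partner and marker lists and this rule were chosen with earlier results of these data known. The replicates are separate pairs of hearts. Members are not replicates of a condition, so no p-value is given.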

Additional observations from a re-analysis of the deposited data

How the results depend on the processing

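The number of forkhead genes with a shared promoter region was 31 and ran from 28 to 34 over the alternatives. Peaks with a q-value of at most 1e-10 left 28, without Foxi2, Foxf1 and Foxd4, and a reciprocal overlap of 50% also left 28, with Foxa2 and Foxi2 among those lost. A limit of 500 bp left 30, without Foxd4, and a limit of 2 kb gave 34, with Foxd3, Foxq1 and Foxh1 added. The outermost start alone gave 30, without Foxj3, and requiring both summits within 1 kb of a start gave 29, without Foxo3 and Foxd4. Replicate 1 alone gave 31, beside 70.1% of all genes, and replicate 2 alone gave 34, beside 69.9%. A further choice made after seeing the data, only regions holding the summits of both replicates, gave 30, without Foxi2. The share of all genes under the same alternatives was 63.7% with the q-value limit, 67.5% with the reciprocal overlap and with 500 bp, 70.6% with 2 kb, 64.6% with the outermost start, 67.3% with both summits near a start and 68.2% with both summits inside. Over all of these, 24 members were called each time and 5 never.

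The 453 window regions fell to 221 with the q-value limit, and with 1 replicate ran from 487 to 522. Median density, 7.75 per 100 kb, was 3.87 with the q-value limit, 6.004 with the reciprocal overlap, 6.67 with both summits inside, 12.1 with 10 kb flanks, 6.75 with 100 kb flanks, 5.44 for distal regions alone, and 8.60 to 9.32 with 1 replicate. Over all genes the median for distal regions alone was 2.96. The other density alternatives were not computed over all genes. The median promoter fold enrichment, 17.8, ran from 15.8 to 19.3 with 1 replicate. Taking the region nearest to the outermost start gave 15.8, and changed the value of 4 of 31 members, Foxa1, Foxj2 and Foxn3 among them, by more than the spread between replicates. No paired analysis was possible because there is a single group. The depth of the libraries is unknown, values below the lowest listed peak are not seen, and 2 replicates give a range but no firm error.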

Other observations

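In the forkhead windows, 92 peaks of replicate 1 and 66 of replicate 2 were called in that replicate alone. They were low: the tallest reached 5.98 and 5.28 fold over background, in that order, and the medians were 4.07 and 3.52. None of them reached the median of the shared distal regions near forkhead genes in the same replicate, 6.52 and 5.78.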
